A study of Homo sapiens with 108 samples.

Results

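The small (40S) subunit of the human ribosome is built from one ribosomal RNA and a set of proteins, and the mRNAs of 32 of those proteins are described here out of 19761 genes counted. They were chosen by name alone: every protein-coding gene called RPSA, or RPS followed by a number with an optional A, X or L, was taken. The 13 other RPS-named genes, such as the RPS6K kinases and RPS19BP1, were left out. Each mRNA was followed by SLAM-seq, in which cells are fed the uridine analogue 4-thiouridine (4SU), the RNA is alkylated, and bases that carried 4SU are read as C in place of T. The share of T positions read as C (the T>C rate) then measures how much of an mRNA was made during labelling, and the read count measures its level.

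The cells were HEK293T, a transformed human embryonic kidney line. All of them were transduced with lentivirus carrying a short hairpin RNA and selected with puromycin. The hairpin was non-targeting (NT) in the control arm. In the other 8 it was directed against ZMAT3, ZMAT5, ZNF706, ZFP36L1, MAZ, PHF7, CNOT4 or BRCA1, which all encode proteins with zinc-binding domains. Every arm, NT included, received 10 µM 4SU for 24 h with the medium renewed every 8 h, then 1 mM uridine for 0, 2, 4 or 8 h (the chase). With 3 replicates at each of 4 chase times there were 12 libraries in each of the 9 arms.

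Libraries held between 63659 and 30750027 reads in 3′ UTRs. The shallowest was replicate 3 of the 8 h PHF7 libraries, and the next was replicate 3 of the 2 h CNOT4 libraries with 1781724. The targeted mRNA stood at 12.2% of its NT level in the MAZ arm, 10.4% in ZMAT5, 24.9% in ZMAT3, 48.9% in ZNF706, 53.4% in BRCA1 and 23.6% in PHF7, the last 2 not passing the test. CNOT4 mRNA was at 97.5% of NT under its own hairpin. ZFP36L1 mRNA was at 174% of NT under the hairpin against it, so those 12 samples are called the libraries labelled ZFP36L1 and no direction below is tied to a loss of the protein. The CNOT4 libraries split by chase time. The 9 libraries of 0 to 4 h covered 27.7 to 31.3 T positions per read over the whole library. The 3 of 8 h covered 32.5 to 34.0, and the NT libraries 37.1 to 37.8. The main CNOT4 results for members are therefore given for the 2 sets apart as well as together.

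Small-subunit proteins fold the decoding centre, line the channel that mRNA threads through, and dock initiation factors. Cells make them in matched amounts, and most of their mRNAs begin with a C followed by an unbroken run of pyrimidines, the 5′ terminal oligopyrimidine (TOP) tract. Through that tract LARP1 and the mTOR pathway set how much of the mRNA is translated and how well it is stored. Changes in single members are known in disease, Diamond-Blackfan anaemia above all, which follows loss of one copy of RPS19, RPS24, RPS7, RPS10, RPS26 and others.

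The annotated start sites show this shared feature. In RefSeq (GRCh38.p14), 25 of the 32 genes had a matched start window, and in 17 of them (68%) the start base was a C followed by at least 4 more C or T, read only on the gene's own strand and only from that base. The same held for 4.04% of 27305 start sites of all genes. The tracts ran from 6 to 14 bases. The windows below cover 25 bases, 5 before the start and the rest after it, with the tract in capitals. They are shown for the members on which the results turn: RPS24 and RPS6 were lower under the PHF7 hairpin, RPS3, RPS16 and RPS19 were higher in several arms, RPS9 was lower in 5 of them, RPS10, RPS13 and RPS26 had the largest changes, and RPS27 and RPS27L are a pair of paralogues of which only the first has a tract at its annotated start.
RPS24 (chr10:78033858-78033882, plus strand): tggttCTCTTTTCCTCCTTggctgt
RPS6 (chr9:19380217-19380241, minus strand): tggccCTCTTTTCCgtggcgcctcg
RPS3 (chr11:75399513-75399537, plus strand): cacttCCTTTCCTTTCagcggagcg
RPS16 (chr19:39435930-39435954, minus strand): gctttCCTTTTCCggttgcggcgcc
RPS19 (chr19:41860250-41860274, plus strand): tcgttCCCTTTCCCCTggctggcag
RPS9 (chr19:54200853-54200877, plus strand): cgcgcCTCTTTCTCagtgaccgggt
RPS10 (chr6:34426050-34426074, minus strand): tccttCCTTTCCagccccggtaccg
RPS13 (chr11:17077648-17077672, minus strand): gctctCCTTTCgttgcctgatcgcc
RPS26 (chr12:56041913-56041937, plus strand): acctcgattttcttccgccatccgg
RPS27 (chr1:153990757-153990781, plus strand): tcgctCCTTTCCggcggtgacgacc
RPS27L (chr15:63157458-63157482, minus strand): cgagcgcagatcgcttgcagcttgc
RPS24 had the longest tract, of 14 bases, and RPS13 one of 6. No capitals appear for RPS26 and RPS27L because the annotated start base is not a C with such a run, which says nothing of the starts these cells use.

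In NT cells the 32 mRNAs together took 2.53% ± 0.089 (SD, n = 12) of all reads counted in 3′ UTRs. Levels are given in CPM, the gene's reads scaled to a common library size after TMM, from the 3′ UTR window that was counted. That window ran from 24 bases in RPS12 to 6927 in RPS29, so an order of levels is an order of counted reads and not of transcripts. RPS2, which sits by the mRNA entry, was highest at 3100 ± 235 CPM, followed by RPS6, the substrate of the S6 kinases, at 2742 ± 237, and RPS4X at 2614 ± 342. Their libraries overlapped from each to the next. RPS24 at 2533 ± 234 and RPS3 at 2082 ± 250 came next and overlapped too, and RPS13 (15.2 ± 7.96), RPS27 (15.5 ± 6.82) and RPS26 (15.7 ± 7.29) were lowest and overlapped.

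Many of these genes have processed copies elsewhere in the genome, and reads that align to several places were kept in the counts. The annotation names at least 1 pseudogene for 31 of the 32 members, with 74 for RPSA, 53 for RPS3A, 36 for RPS26 and none for RPS27L. The share of a gene's reads that aligned to more than one place (the multimapped share) was 99.6% ± 1.26 for RPS18 and 99.5% ± 1.16 for RPS9 in NT. RPS26 (89.4%), RPSA (85.7%), RPS27 (68.5%) and RPS7 (66.8%) also rested mostly on such reads, and 7 members in all were above 50%. In 11 members the share was under 1%, among them RPS3, RPS4X, RPS6, RPS16, RPS21, RPS24, RPS27L and RPS29. The share did not follow the number of annotated pseudogenes member by member: RPS9 has 1 and RPS18 has 6, while RPS29 (32) and RPS4X (23) had multimapped shares of 0.042% and 0.168%. Where the share is high, reads of the gene and of other places in the genome cannot be told apart, and the level given here is uncertain.

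The multimapped share moved with the arm, most in 2 sets of libraries. Over all members it was 7.11 to 8.89% in NT, 22.4 to 31.6% in the libraries labelled ZFP36L1 and 23.3 to 30.9% in the 0 to 4 h CNOT4 libraries. It was 7.45 to 8.15% in the 8 h CNOT4 libraries, within the NT range. Over all counted reads of a library the share moved too. That share was 6.66 to 6.91% in NT, 9.2 to 12.4% in the libraries labelled ZFP36L1 and 9.3 to 11.9% in the 0 to 4 h CNOT4 libraries. In the 8 h CNOT4 libraries it was 5.82 to 5.91%, below every NT library. The members' share lay wholly below NT, by less, under the MAZ (6.07 to 7.08%), ZMAT5 (5.15 to 6.93%) and ZNF706 (4.33 to 6.80%) hairpins. In those 3 arms the share over all reads overlapped NT. The share rose by more than 10 points in the libraries labelled ZFP36L1 in 10 members, among them RPS25, from 4.66% ± 2.14 to 63.5% ± 12.7, and RPS2, from 5.36% ± 1.23 to 48.7% ± 6.45. In both genes all 12 libraries lay above all 12 of NT. RPS23, a decoding-centre protein, went the other way, from 31.2% ± 2.66 to 11.4% ± 0.703, with no overlap. It was also below every NT library in all 12 libraries of the MAZ (20.1 to 25.5%), ZMAT5 (16.2 to 24.4%) and ZNF706 (11.7 to 25.7%) arms. Results for these arms are therefore given with uniquely mapped reads alone as well.

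**Figure D1:**
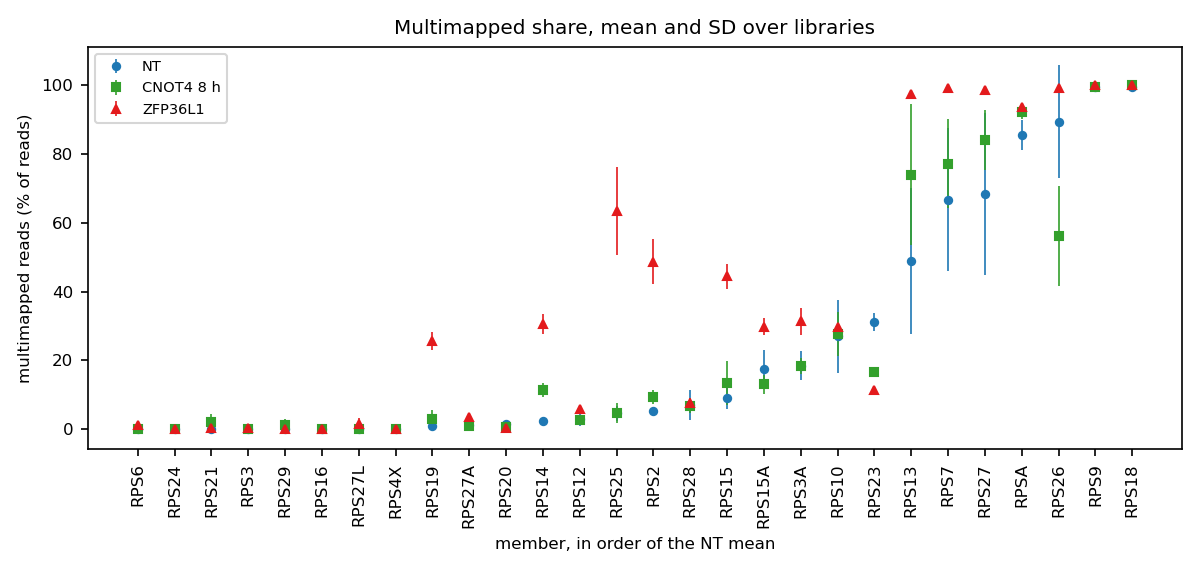
Multimapped reads as a percent of each member's reads (mean and SD over libraries) in NT (12 libraries), the 8 h CNOT4 libraries (3) and the libraries labelled ZFP36L1 (12), for 28 members in order of the NT mean. RPS18 and RPS9 sit near 100% in all 3 sets, while RPS25 rises from 4.66% in NT to 63.5% in the libraries labelled ZFP36L1.

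Levels were compared with NT arm by arm, with edgeR's quasi-likelihood test over all genes and chase time as a factor. A call needed an adjusted p (Benjamini-Hochberg, over all genes tested) under 0.05 and a change of more than 1.2-fold in either direction. All 32 members passed the low-count filter in every arm. RPS9, RPS16, RPS27A and RPS28 were among those called in 6 of the 8 hairpin arms, the most for any member, and RPS20 was called in 1. All arms share the same 12 NT libraries.

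**Figure D2:**
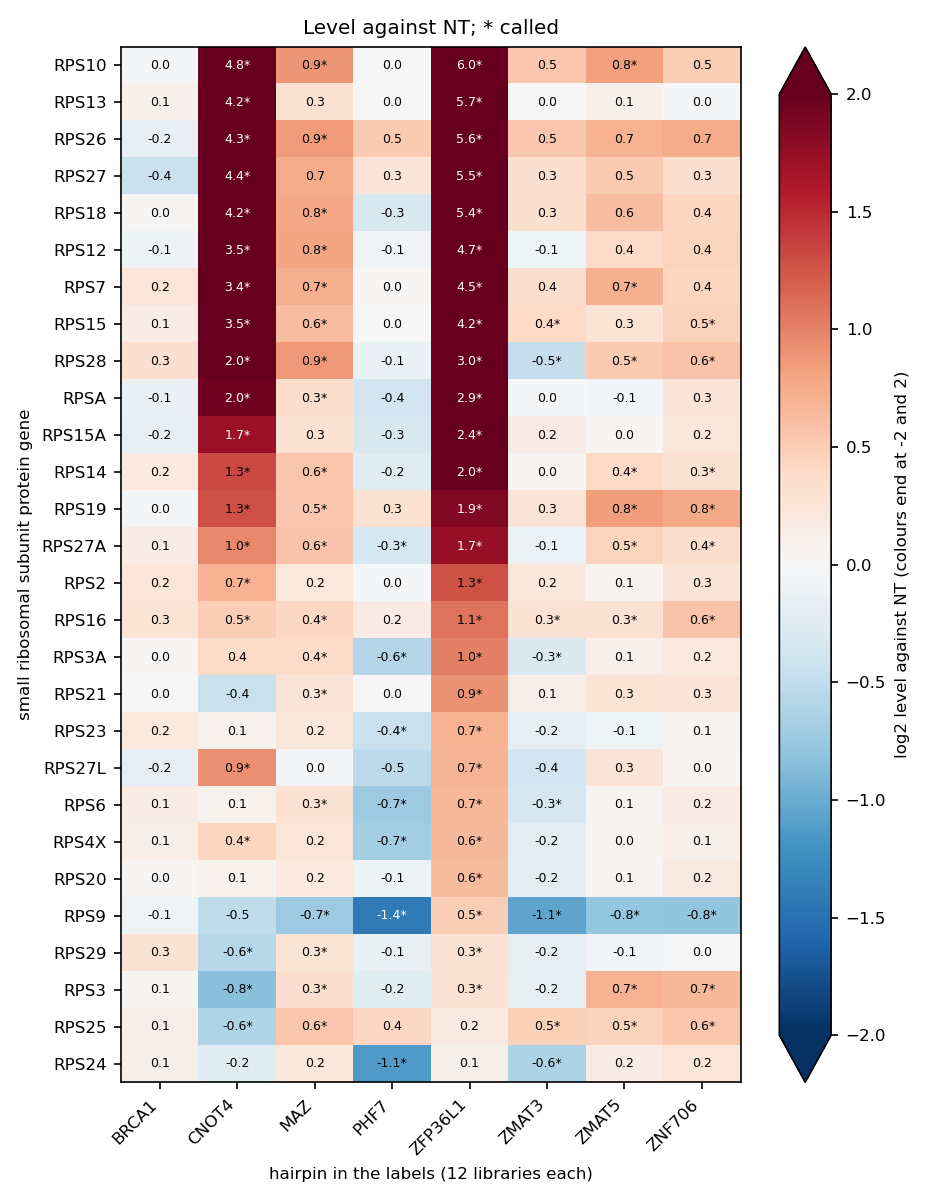
Log2 change in level against NT for 28 members (rows) in the 8 hairpin arms (columns), with colour limited to between -2 and 2, the value written in each cell and an asterisk on those called. The ZFP36L1 and CNOT4 columns hold the largest changes, up to 6.05 for RPS10, and RPS9 is below NT in the MAZ, PHF7, ZMAT3, ZMAT5 and ZNF706 columns.

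The libraries labelled ZFP36L1 differed most. There 30 members were higher and none lower, where 21.7% of 13253 genes tested were called higher and 18.3% lower. The median log2 change was 1.52 over members and 0.15 over all genes, and members took 6.02% ± 0.638 of counted reads. In 24 members all 12 libraries lay above all 12 of NT, as 3.67% of genes did. RPS24 (log2 0.12 ± 0.08, SE) and RPS25 (0.19 ± 0.08) were the pair not called.

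RPS10, a protein near the mRNA entry that is ubiquitinated on stalled ribosomes, changed most. In NT its level ran from 7.27 through a median of 16.1 to 23.9 CPM, and in the libraries labelled ZFP36L1 from 643 through 1139 to 1382. The groups were far apart, with a log2 change of 6.05 ± 0.16 (edgeR adjusted p 1.17e-25), and the change was 5.99 ± 0.19 with uniquely mapped reads. RPS13, whose NT range was 4.28 to 29.5 CPM with a median of 13.8, ran from 432 through 764 to 1020. All of its libraries were above NT as well, by 5.66 ± 0.22, but by 1.27 ± 0.41 (adjusted p 0.0113) with uniquely mapped reads. RPS26, which lies at the mRNA exit, went from 6.88, 14.3 and 32.9 CPM (lowest, median, highest) to 465, 711 and 1020. That gave a log2 change of 5.57 ± 0.20 with no overlap, and of 2.32 ± 1.03 (adjusted p 0.0715) with uniquely mapped reads.

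Altogether 10 members had a log2 change over 3, among them RPS7, RPS10, RPS12, RPS13, RPS15, RPS18, RPS26, RPS27 and RPS28. With uniquely mapped reads 5 of these were called higher (RPS10, RPS12, RPS13, RPS15 and RPS28). RPS7 had a log2 change of 4.55 ± 0.14 with all reads and -0.68 ± 0.55 (adjusted p 0.346) with uniquely mapped ones. RPS18 had too few uniquely mapped reads to test. Over the 31 members that could be tested that way, 24 were higher and RPS25 was lower (-1.18 ± 0.15, adjusted p 5.15e-08), against 21.4% of genes called higher and 18% lower. RPS12, a 24-base window, had 4.73 ± 0.15 in both counts to 2 decimals.

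Among abundant members that rest on uniquely mapped reads, changes were smaller. RPS16, whose tail reaches the decoding site, had log2 1.08 ± 0.08 and RPS6 0.66 ± 0.06. RPS3, which lines the entry channel, was at 0.28 ± 0.07 and RPS29, a zinc-binding protein, at 0.30 ± 0.08. Both of these were called, but neither held when libraries were scaled to all mapped reads (adjusted p 0.0698 and 0.0516). The covered T positions per read, 25.9 to 33.04 here against 37.1 to 37.8 in NT, moved with these changes, as did the multimapped share. Their part in the result was not tested.

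**Figure D3:**
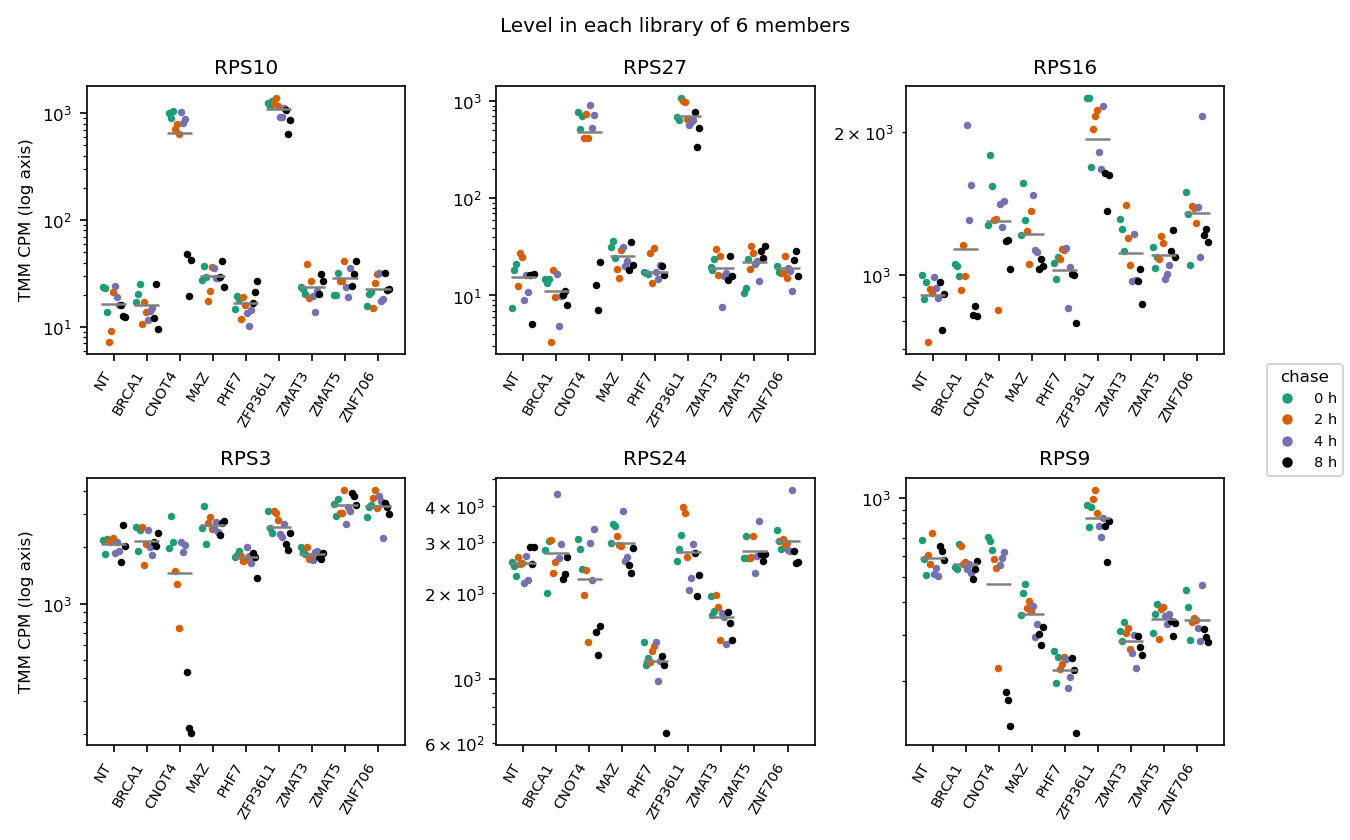
Level of RPS10, RPS27, RPS16, RPS3, RPS24 and RPS9 in each library (CPM, log axis) by arm, with points coloured by chase time and a grey line at the mean of 12. A PHF7 library with no RPS27 read has no place on the log axis. RPS10 lies at 643 to 1382 CPM in the libraries labelled ZFP36L1 and at 7.27 to 23.9 in NT, and RPS9 lies below NT in 5 arms without overlap.

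Under the CNOT4 hairpin 21 members were higher and 3 lower (RPS3, RPS25 and RPS29) over the 4 chase times, against 13.5% of 13308 genes called in each direction. The member median was 0.93 on the log2 scale and that of all genes 0.08. In the 9 libraries of 0 to 4 h 24 were higher and RPS29 lower, against 9.17% and 9.97% of genes, with a member median of 1.12. In 17 members all 9 of these libraries lay above NT, as 1.83% of genes did. Of the 10 members over log2 3 in the libraries labelled ZFP36L1, 9 were also over 3 in the 0 to 4 h CNOT4 libraries, a pair of comparisons that shares its controls. Scaled to all mapped reads, the median of all genes moved from 0.08 to -0.06, the called genes split 1435 higher to 2193 lower in place of 1794 each, and members split 20 to 6 (10.8% and 16.5% of genes). With uniquely mapped reads over all 4 times, 14 of 31 members were higher and 3 lower, where 13% of genes were higher and 13.1% lower.

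RPS10 ran from 640 through 881 to 1037 CPM in the 9 early libraries and stood at 19.5, 42.6 and 47.9 CPM in the 3 of 8 h. The early libraries were all above the NT maximum of 23.9, and 1 of the 8 h libraries fell within the NT range. RPS26 stood at 125, 643 and 741 CPM (lowest, median, highest) early and at 7.11, 8.64 and 9.50 at 8 h, inside its NT range. RPS3 showed the other pattern. It spanned 740 to 2944 CPM with a median of 1974 early, across the NT range of 1656 to 2636, and was 203, 215 and 433 CPM at 8 h, below every NT library.

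The difference from NT depended on chase time in 24 of 32 members (edgeR test of the arm by time terms), where 0.571% of 13308 genes were called. With uniquely mapped reads 16 of 31 were called, where 0.404% of genes were. The median log2 change over members was 1.30, 0.91 and 1.24 at 0, 2 and 4 h and 0.00 at 8 h, while that of all genes stayed between -0.09 and 0.07. All 24 were lower against NT at 8 h than at 0 h. RPS3 went from 0.16 at 0 h to -2.91 at 8 h (adjusted p 1.16e-06) and RPS12 from 4.61 to -0.56. At 8 h 5 members, RPSA, RPS15 and RPS16 among them, lay above all NT libraries (8.06% of genes did) and 10 members lay below them (7.54% of genes), RPS3, RPS9 and RPS24 among them. No member was called for such a dependence in any other arm, where 0 to 0.0157% of genes were and between 0 and 9 members had an unadjusted p under 0.05.

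**Figure D4:**
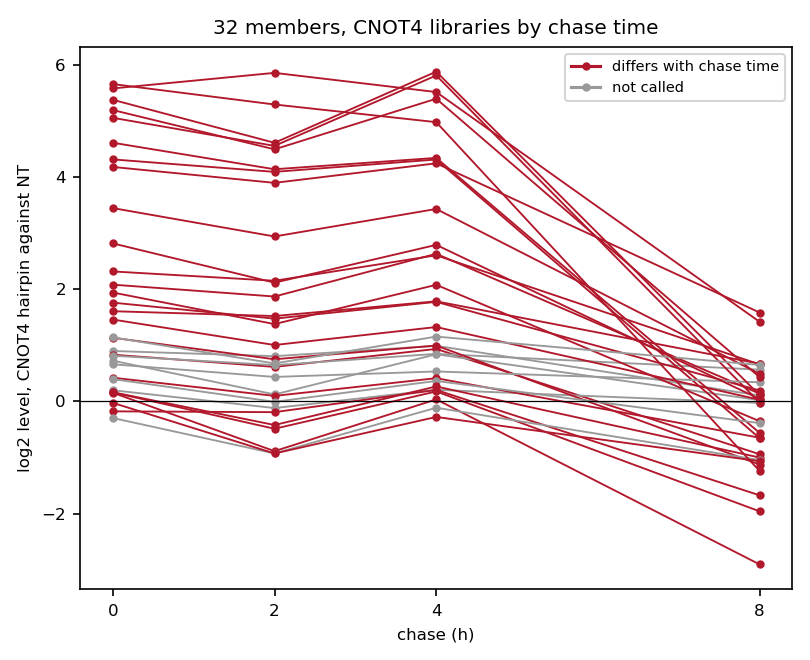
Log2 level under the CNOT4 hairpin against NT at 0, 2, 4 and 8 h of chase, 1 line per member (3 libraries per time and arm), with red for the 24 members whose difference depended on chase time. The median falls from 1.24 at 4 h to 0.00 at 8 h.

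In the 8 h CNOT4 libraries members took 2.45% ± 0.101 (n = 3) of counted reads, against 5.08% ± 0.574 (n = 9) in the earlier ones and 2.53% ± 0.089 in NT. The multimapped share and the T positions per read changed between the same libraries. The header lines of those 3 files also name the sample type as pulse-chase, where the other 105 name it chase, and whether they were made or processed separately is not given in the sources used here. Chase time cannot be told apart from whatever else set those 3 libraries apart.

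The arm with the hairpin against MAZ, a transcription factor that binds GC-rich promoters, showed a broad and small rise. In this arm 20 members were higher and RPS9 alone lower, against 5.2% and 3.55% of 13398 genes. The member median was 0.37 and the highest log2 change 0.88. RPS16 rose from 724, 927 and 1001 CPM (lowest, median and highest in NT) to 1029, 1173 and 1568, so that no library overlapped. Its log2 change was 0.42 ± 0.06 (adjusted p 1.35e-05). RPS27A (873 to 1303 CPM against 512 to 864) was also clear of NT, by 0.57 ± 0.08, and 3 members in all were, where 0.231% of genes lay wholly above. Further members that passed were RPS28 (0.87 ± 0.10), RPS15 (0.61 ± 0.10), RPS14 (0.56 ± 0.08), RPS25 (0.55 ± 0.08) and RPS19 (0.53 ± 0.08). With uniquely mapped reads 16 of 31 were higher and none lower (5.29% and 3.48% of genes). With the 0 h libraries alone, 3 against 3, 5 were called. The share of all genes called in that smaller fit is not given here, so the count is not a result about members.

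The arms with hairpins against ZMAT5, a protein of the minor spliceosome, and ZNF706 showed fewer calls in much the same range of sizes. Under the ZMAT5 hairpin 11 members were higher and RPS9 lower (5.29% and 4.22% of 13149 genes), with a member median of 0.27. Under the ZNF706 hairpin 10 were higher and RPS9 lower (2.85% and 2.29% of 13072 genes), with a median of 0.28. On uniquely mapped reads alone 9 of 31 members were higher under ZMAT5 (5.16% of genes) and 10 of 31 under ZNF706 (2.83%), and none was lower in either (4.06% and 2.21%). Without replicate 1 the ZNF706 calls fell to 6, in a smaller fit whose share of all genes called is not given here. RPS3 was among the clearest in both. It lay at 2656 to 4054 CPM with a median of 3321 under the ZMAT5 hairpin, above every NT library, by 0.69 ± 0.06 (adjusted p 1.62e-10). Under the ZNF706 hairpin it lay at 2246 to 4020 CPM, with 11 of 12 libraries above NT, by 0.66 ± 0.07 (1.33e-08). RPS19, the gene most often lost in Diamond-Blackfan anaemia, went from 268, 358 and 455 CPM in NT to 543, 625 and 770 under the ZMAT5 hairpin. There was no overlap, and the change was 0.83 ± 0.08. Under the ZNF706 hairpin 11 of 12 RPS19 libraries were above NT, by 0.75 ± 0.09. Wholly above NT were 3 members under the ZMAT5 hairpin, RPS3 and RPS19 among them, as 0.373% of genes were. Under the ZNF706 hairpin RPS16 (1050 to 2161 CPM) was, as 0.145% of genes were.

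Under the PHF7 hairpin 9 members were lower and none higher, against 4.53% of 13324 genes called lower and 3.89% higher. The PHF7 mRNA was near the limit of counting, at 1.24 ± 1.60 CPM against 4.24 ± 6.61 in NT. RPS24, with the 14-base tract above, stood at 2167, 2529 and 2894 CPM in NT and at 650, 1175 and 1354 here, the lowest from the shallow library. All 12 libraries were below NT, by 1.13 ± 0.09 on the log2 scale (adjusted p 7.89e-11). Without the shallow library the range was 990 to 1354 CPM. RPS6 (log2 -0.73 ± 0.11), RPS4X (-0.69 ± 0.10), RPS23 (-0.44 ± 0.07) and RPS9 were also wholly below NT, among 6 members in all, as 0.983% of genes were. RPS3A (-0.58 ± 0.09) and RPS27A (-0.34 ± 0.10) were lower with some overlap.

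The scaling matters for this arm. Scaled to all mapped reads instead of by TMM, the median of all genes moved from 0.07 to 0.28, the split of called genes from 518 higher and 603 lower to 1412 and 337, and the members from 9 lower to 4 higher and 6 lower (10.6% and 2.53% of genes). Relative to that all-gene median the member median was lower under both scalings, at -0.19 by TMM and 0.05 by mapped reads. RPS24, RPS6, RPS4X and RPS9 were lower past the test under both.

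Under the ZMAT3 hairpin, directed at an RNA-binding target of p53, members went both ways. Higher were 4, RPS15, RPS16 and RPS25 among them, and lower were 5 (RPS3A, RPS6, RPS9, RPS24 and RPS28), against 5.49% and 4.75% of 13307 genes, and the median of -0.02 changed sign with the scaling. RPS24 ran from 1331 through 1687 to 1969 CPM, below all NT libraries, by 0.62 ± 0.06 on the log2 scale (adjusted p 2.92e-09). RPS24 and RPS9 were the only members wholly below NT, where 0.564% of genes were. RPS28 stood at 137, 182 and 291 CPM against 199, 250 and 359 in NT, with 9 of 12 libraries below the NT range and a log2 change of -0.48 ± 0.10. Scaled to all mapped reads, 6 members were higher and 3 lower (9.3% and 3.33% of genes), and the called genes split 1238 to 443 instead of 731 to 632.

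Under the BRCA1 hairpin none of 32 was called by edgeR, where 0.0785% of 12735 genes were, while 7 had an unadjusted p under 0.05. DESeq2 called 1. Members took 2.775% ± 0.406 (n = 12) of counted reads, against 2.53% ± 0.089 in NT. The libraries of this arm thus spread more, and the lack of calls does not show that levels were equal. Of all genes 5 were higher and 5 lower, and 15 and 3 when scaled to all mapped reads, which again called no member (0.141% of genes). The member median was 0.06, the log2 changes ran from -0.44 to 0.34, and no member was clear of NT, where 0% of genes lay wholly above and 0.0157% below.

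Read across arms, RPS9 stood out. Its NT level was 504 to 734 CPM with a median of 581. It was 275 to 469 CPM under the MAZ hairpin (log2 -0.72 ± 0.07), 126 to 261 under PHF7 (-1.41 ± 0.10), 224 to 335 under ZMAT3 (-1.06 ± 0.07), 289 to 393 under ZMAT5 (-0.77 ± 0.07) and 283 to 466 under ZNF706 (-0.79 ± 0.09). In each of these 5 arms, which share their controls, all 12 libraries lay below all 12 of NT (0.336%, 0.983%, 0.564%, 0.494% and 0.184% of genes did in that order), and in 3 of them RPS9 was the only member to fall. In the libraries labelled ZFP36L1 it was higher (0.50 ± 0.07), and under BRCA1 it was -0.07 ± 0.08. Under CNOT4 it was -0.50 ± 0.20 over all chase times (edgeR adjusted p 0.0562). By chase time that was 0.16, -0.49 and 0.18 at 0, 2 and 4 h and -1.96 at 8 h. With 99.5% of its NT reads multimapped, RPS9 was called in no arm with uniquely mapped reads, where its log2 values ran from -6.92 ± 2.90 (CNOT4) to 2.03 ± 1.85 (BRCA1).

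RPS28, a small protein of the exit site, was higher in 5 arms and lower in ZMAT3. Its NT range was 199 to 359 CPM, and it reached 1420 to 2740 in the libraries labelled ZFP36L1, 787 to 2252 in the early CNOT4 libraries, 332 to 689 under MAZ, 287 to 471 under ZMAT5 and 294 to 485 under ZNF706. The first 2 sets were clear of NT and the other 3 overlapped it in part. Some of its counted bases also belong to another gene, as do some of RPS25, so a read there may have been counted for both genes. RPS27A, made as a fusion with ubiquitin, was higher in the same 5 arms (0.35 to 1.74 on the log2 scale) and lower under PHF7. RPS16 was higher in 6 arms, with 0.29 ± 0.06 under both ZMAT3 and ZMAT5, 0.57 ± 0.08 under ZNF706 and 0.49 ± 0.08 under CNOT4. The CNOT4 value was 0.66, 0.44, 0.53 and 0.34 at 0, 2, 4 and 8 h. Its multimapped share was 0.067% in NT, and it was called in the same 6 arms with uniquely mapped reads.

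The paralogues RPS27 and RPS27L differed. RPS27L, which p53 induces, stood at 54.3 ± 17.2 CPM in NT and was higher under CNOT4 (log2 0.91 ± 0.20) and in the libraries labelled ZFP36L1 (0.68 ± 0.14) alone, nearly all on uniquely mapped reads. RPS27 was at 15.5 ± 6.82 CPM in NT and higher by 4.37 ± 0.55 and 5.52 ± 0.19 in the same arms. By chase time its CNOT4 values were 5.38, 4.61 and 5.88 at 0, 2 and 4 h and 0.11 at 8 h. Those of RPS27L were 1.14, 0.68 and 1.16, and 0.65 at 8 h. With uniquely mapped reads RPS27 gave -0.23 ± 0.94 under CNOT4 and 0.98 ± 0.60 in the libraries labelled ZFP36L1, neither called. The difference between the paralogues was not tested.

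The members share a feature of gene structure that was looked at after their values were known. The last exon of the canonical transcript is shorter than the 150-base read in 13 of 32 members (40.6%), against 2.17% of 18471 genes with several exons. In the libraries labelled ZFP36L1 the median log2 change was 4.25 in those 13 and 1.10 in the other 19, and over all genes it was 0.60 for the short class (191 genes) and 0.15 for the rest. In the early CNOT4 libraries the same members gave 4.10 and 0.96. Of the 10 members over log2 3, 8 had such an exon, and so did RPS21, RPS24, RPS25 and RPS29, with changes of 0.12 to 0.90. Over the 32 members the Spearman rho of the log2 change with the length of the last exon itself was weak, at -0.164 in the libraries labelled ZFP36L1 and -0.084 in the early CNOT4 libraries. With the number of counted bases it was -0.602 and -0.524, and with the NT level, which also enters the change, -0.783 and -0.786. These are descriptions, since the points share libraries.

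The label in members fell less over the chase than that in most genes. In NT the median T>C rate over 30 members was 1.28% ± 0.026 (SD over 3 replicates) at 0 h, 0.96% ± 0.014 at 2 h, 1.02% ± 0.054 at 4 h and 0.87% ± 0.020 at 8 h. Over 7630 genes it fell from 1.65% ± 0.072 through 1.18% and 0.76% to 0.27% ± 0.063. Members thus began lower than the median gene and ended higher, keeping 67.2% of their starting rate at 8 h as a median, against 20.6%. No library without 4SU was among the samples used, so the part of these rates that is sequencing error was not measured.

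RPS23, with the most conversions per gene (104901 over the 12 NT libraries), went from 1.43% ± 0.074 at 0 h through 1.10% and 1.16% to 0.96% ± 0.126 at 8 h. Its loss rate was 0.044 ± 0.011 per h. RPS2 lost label at 0.038 ± 0.011 per h and RPS24 at 0.043 ± 0.013 per h, close to the median over members of 0.042 per h. The median over all genes was 0.20 per h. Rates of sparsely counted members are poorly known: RPS7, with 474 conversions in all, gave 0.160 ± 0.139 per h and RPS27, with 192, gave -0.026 ± 0.134.

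A first-order curve with R2 over 0.6 was reached by 13 of 30 members in NT, with a median half-life of 12.4 h, against 3.27 h over 5544 genes. The shortest were RPS7 (3.12 h), RPS25 (8.64 h) and RPS6 (11.5 h), and the longest RPS3A (23.7 h), RPS20 (17.6 h) and RPS14 (16.8 h). All of the 13 but RPS7 are longer than the 8 h observed, so they are extrapolations.

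Levels themselves did not detectably move over the chase. Between 8 h and 0 h in NT edgeR called none of 32 members and 0% of 12126 genes, while 615 genes and 2 members had an unadjusted p under 0.05. DESeq2 called 96 genes and no member. The log2 changes of members ran from -0.56 to 0.53.

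No member was called for a difference from NT in the rate at which label was lost, in any arm. The share of all genes called was 0% for BRCA1, 0.0136% for ZNF706, 0.0402% for MAZ, 0.0579% for CNOT4, 0.0684% for ZMAT5, 0.0815% in the libraries labelled ZFP36L1, 0.307% for PHF7 and 0.573% for ZMAT3, and between 0 and 3 members had an unadjusted p under 0.05, with a smallest adjusted p of 0.377. The same held with limma, with T>C reads in place of conversions, and relative to each library's pooled rate. The differences in slope ran from -0.161 to 0.146 per h over arms and members. In simulated counts for ZNF706 against NT, 37% of genes given a slope 0.15 per h steeper were called. Those genes were drawn from all 7328 that passed the filter, with the same start rate, base rate and dispersion for each. The 37% therefore does not describe the most deeply counted members, such as RPS23, with an SE of 0.011 per h in NT. The simulated step is larger than the median member rate in NT of 0.042 per h. The lack of calls does not show that loss was the same.

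Label at 0 h did differ. It was higher under the MAZ hairpin in 18 members (32.9% of genes called higher), higher under ZMAT3 in 18 (25.5%), and lower under ZMAT5 in 7 (2.45%). In the other 5 arms no member was called, where 0.131% of genes were for PHF7, 0.0367% in the libraries labelled ZFP36L1 and 0% in the rest, and 0 to 13 members had an unadjusted p under 0.05. The median rate over members at 0 h was 2.06% ± 0.076 under MAZ, 2.18% ± 0.318 under ZMAT3 and 0.86% ± 0.028 under ZMAT5, against 1.28% ± 0.026 in NT. RPS2, the member with the highest level in NT, stood at 1.76% ± 0.052, 1.72% ± 0.219 and 0.76% ± 0.036 in these arms and at 1.09% ± 0.068 in NT, and was called in all 3. All genes moved in the same way: their median was 3.07%, 3.17% and 1.24%, against 1.65% in NT. Relative to each library's pooled rate no member was called in any arm. Counting T>C reads in place of conversions also changed the calls. It gave 12 members lower under CNOT4 (3.16% of genes), 12 higher under MAZ (11% of genes), 0 under ZMAT3 (0.289% of genes higher, 20 members at an unadjusted p under 0.05) and 1 lower under ZMAT5 (0.109%). A count of T>C reads also depends on how many T positions each read covers. Over the whole library that number was 27.7 to 31.3 in the 0 to 4 h CNOT4 libraries, against 37.1 to 37.8 in NT. Its part in the CNOT4 calls was not tested. Leaving out 1 replicate also ended calls: without replicate 2 no member was called under MAZ, without replicate 3 none under ZMAT3, and without any one of the 3 none under ZMAT5. The shares of all genes called in those smaller fits are not given here.

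**Figure D5:**
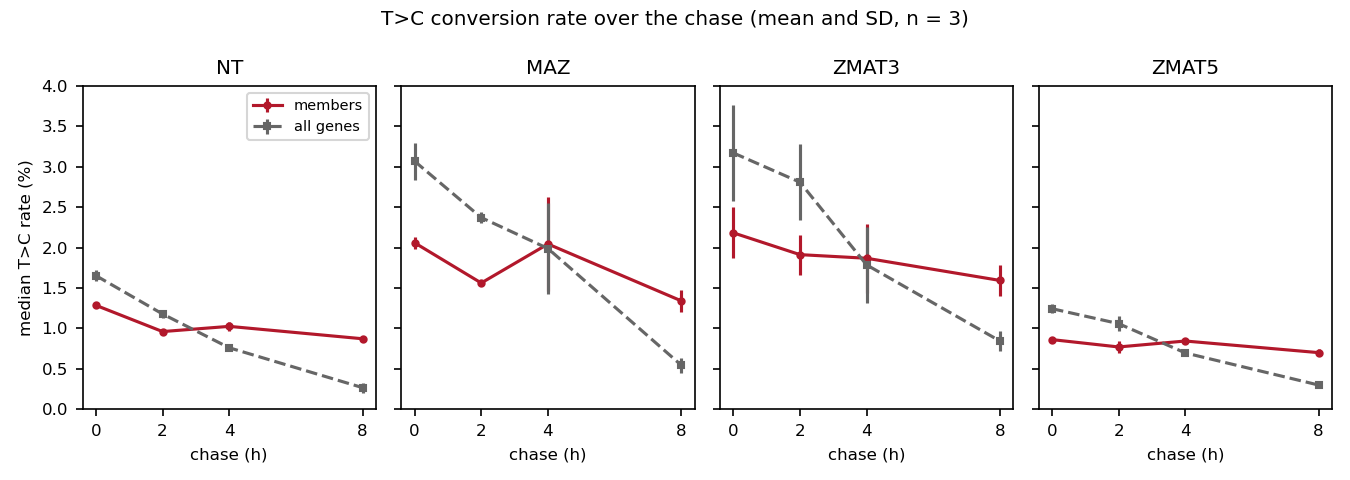
Median T>C rate (percent of covered T positions, mean and SD over 3 replicates) over members and over all genes at each chase time in NT and in the MAZ, ZMAT3 and ZMAT5 arms. Members start below all genes and end above them, from 1.28% to 0.87% in NT while all genes go from 1.65% to 0.27%.

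The other genes of the pathway were taken from lists and not for how they moved. FAU and RACK1 encode the small-subunit proteins whose symbols the rule does not take. RACK1, the scaffold on the subunit's head, was higher under MAZ (0.36), ZMAT3 (0.49), ZMAT5 (0.55) and ZNF706 (0.44). FAU, made as a fusion with a ubiquitin-like protein, was higher under MAZ (0.29) and in the libraries labelled ZFP36L1 (0.35) and lower under PHF7 (-0.69) and ZMAT3 (-0.44). FAU under PHF7 and ZMAT3 thus had the sign of RPS24 and RPS6, and RACK1 did not.

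Of 19 genes for assembly and export of the subunit, 7 were higher and 8 lower in the libraries labelled ZFP36L1 and 5 and 5 under CNOT4. In the other 6 arms 0 to 3 were higher and 0 to 3 lower. BUD23, which methylates the small subunit's RNA, was higher in 5 arms, by 0.38 (MAZ) to 1.18 in those other than CNOT4. RPS19BP1, which binds RPS19, was lower in 6 arms, as was TSR3, which modifies the same RNA (-0.58 to -1.12 where called). Of 15 genes that signal to TOP mRNAs, 4 were higher and 5 lower in the libraries labelled ZFP36L1, 3 and 4 under CNOT4, 1 and 3 under MAZ, and at most 2 moved in any other arm. LARP1, the protein that binds the TOP tract, was lower under MAZ (-0.33), PHF7 (-0.83), ZMAT3 (-0.39) and ZMAT5 (-0.46). MTOR was lower under CNOT4 (-1.85) and in the libraries labelled ZFP36L1 (-1.02).

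Of 19 genes that handle stalled small subunits, 5 were higher and 10 lower in the libraries labelled ZFP36L1, 4 and 4 under CNOT4, and at most 4 moved in any other arm. ZNF598, the ligase that marks RPS10 and RPS20, was called in none. USP10, which removes such marks, was higher under CNOT4 (0.79) and in the libraries labelled ZFP36L1 (0.91) and lower under MAZ (-0.45) and ZMAT5 (-0.70). Across these lists and arms the median log2 change ran from -0.43 to 0.38, and the counts stand against the background shares given above for each arm.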

How the data were processed

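SLAM-seq libraries (QuantSeq 3′ kit, polyadenylated RNA, 150-base reads) came from HEK293T samples, 3 labelled replicates for each of 9 arms and 4 chase times. The replicate numbers are the labels' own, and the labels name no batch. The study's methods call them biological replicates. Whether each was a separate transduction is not given there or in the labels, so p-values measure the spread between these samples.

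The authors aligned reads to hg38 and counted them with SlamDunk (version 0.4.3 per the file headers), keeping reads that map to several places. For each of 69079 3′ UTR intervals the deposited files hold raw counts of reads, multimapped reads, reads with T>C and single conversions, and the number of T positions covered. The authors' CPM column, scaled to all mapped reads, served here to recover the number of mapped reads for the alternative scaling. It also set which genes passed the 5 CPM filter for label rates, label loss and half-lives. The deposited conversion rate, a fraction of covered T positions, was recomputed after summing.

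Intervals were summed per gene (19761 genes), and 19501 genes were named by GENCODE 44. The members and the gene lists were chosen with earlier results of these data known. By rule, values are given for the 6 members called for level in most arms, the 3 with the largest change, up to 6 called for label in an arm, the extremes of NT half-life, multimapped share and level, the RPS27 pair, and up to 4 genes per list called in most arms. Other members and ZNF598 were named after their values were seen. Some members enter the counts and medians but are not reported here one by one. Levels were tested against NT with edgeR 4.0.16 (quasi-likelihood, TMM, filterByExpr, chase time as a factor, 19 residual degrees of freedom, R 4.3.3). A separate fit with arm by time terms tested dependence on chase time. Label at 0 h and its loss over the chase were tested with the same tool on conversions, with the log of covered T positions as offset, for genes that exceeded 5 CPM in 2 or more replicates of each group. All p-values were adjusted over all genes tested. Levels shown as CPM use 1 TMM scaling over all libraries, while log2 changes come from each arm's own fit. Half-lives come from a first-order curve through the mean rates. Level was also run with DESeq2 1.42.0, another scaling, no low-count filter, uniquely mapped reads and fewer chase times. Loss was also run with limma 3.58.1 and with fewer chase times. Label and loss were also run with T>C reads and relative to each library's pooled rate, but not with uniquely mapped reads. For level, label and loss each replicate was left out in turn. Start-site windows were read from RefSeq (GRCh38.p14), and 7 members had no entry there. The scripts were tested on simulated data. Libraries held 63659 to 30750027 reads, and PCR reads without molecular identifiers are not independent molecules.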

Additional observations from a re-analysis of the deposited data

Results flagged for a closer look

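Under the CNOT4 hairpin the difference in level from NT depended on chase time in 24 members by edgeR's test of the arm by time terms, which compares the effect at 0, 2, 4 and 8 h directly. The 8 h libraries were the ones that stood apart: the median over members was 1.24 on the log2 scale at 4 h and 0.00 at 8 h. The multimapped share of members' reads was 23.3 to 30.9% in the 0 to 4 h libraries and 7.45 to 8.15% in the 8 h ones, and the part of either in the result was not tested.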

How the results depend on the processing

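Across the headline results alone, 198 alternative values kept their direction and side of the threshold. In the same set 20 fell below it or shrank, 4 rose past it or grew, and 1 moved. Outside that set most alternative values kept their direction, others were weaker, and 13 reversed. Sign changes of members and of member medians are given below. In members called for level, edgeR on the 0 h libraries alone gave 5 (MAZ), 1 (ZMAT3), 3 (ZMAT5) and 3 (ZNF706), the 0 to 4 h libraries gave 7 for ZMAT5, and DESeq2 and no low-count filter each gave 1 for BRCA1. Leaving out each replicate gave 6 to 10 for ZNF706. Members called for label at 0 h numbered 12 (CNOT4), 0 (ZMAT3) and 1 (ZMAT5) with T>C reads, and 0 relative to the pooled rate for MAZ, ZMAT3 and ZMAT5. Leaving out each replicate gave 0 to 14 (MAZ), 0 to 17 (ZMAT3) and 0 to 0 (ZMAT5). The NT median half-life was 16.1 h with T>C reads. With uniquely mapped reads the BRCA1 effect depended on chase time in 1 member. The share of all genes called is not given beside the counts in this paragraph. They show how member calls moved with the processing and are no result about members.

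With the replicate number as a block, label calls were 8 for ZMAT3 and 0 for ZMAT5 and the ZMAT3 median level was 0.0028. Over 96 same-numbered pairs the correlation of deviations was -0.033 to 0.023, so no pairing by number was seen. Deviations of single genes also carry counting noise, so a low correlation does not show that the samples were unpaired.

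The sign turned with uniquely mapped reads for RPS27 (-0.23) and RPS7 (-2.02) under CNOT4, RPS7 (-0.68) and RPS9 (-2.49) in the libraries labelled ZFP36L1, and RPS9 under PHF7 (0.29), ZMAT3 (1.23) and ZNF706 (0.94). The member median turned under PHF7 when scaled to all mapped reads (0.0467), and under ZMAT3 with that scaling (0.0672), with 0 to 4 h libraries (0.0336) and on leaving out replicates (-0.0466 to 0.0353). The cause was not tested. Depth limits the members under 50 CPM in NT and the label of RPS27, RPS18 and RPS13.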
